A study of Homo sapiens with 4 samples.

Results

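Accessible chromatin of 786-O cells contained 1656 regions that ranked low in a vehicle library and were nevertheless called as peaks in every library treated with ACSS2i, and these regions are described here. All 4 ATAC-seq libraries came from 786-O, a line from a clear cell renal carcinoma without functional VHL, the ubiquitin ligase component that marks HIF subunits for degradation. The ACSS2i group holds 2 libraries of cells given 5 µM of a compound directed at ACSS2, and the DMSO group holds 2 libraries of cells given the vehicle alone, both for 24 h. Peaks were listed separately for every library, on the build hg38. The question of the experiment was which open regions change with ACSS2i, in 1 cell line, at 1 dose and 1 time.

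Within each list, peaks were ranked by the deposited −log10 q-value of the peak caller and given a percentile. Intervals of the 4 lists that overlapped by at least 1 bp were merged into 53572 regions. Both DMSO lists held a peak in 31506 of them. A region was called weak when its best peak lay below percentile 50 in at least 1 DMSO list, which held for 15286 of the 31506. The members are the 1656 weak regions with a peak in both ACSS2i lists, 10.8% of the weak regions. Of all 31506 regions, 13306 (42.2%) had a peak in both ACSS2i lists. A further 4397 weak regions had a peak in 1 ACSS2i list, and 9233 had none in either. To set the members against regions of like vehicle strength, 1453 members were each paired with 1 of the 9233 absent regions whose percentiles in both DMSO lists lay within 5 points. These 1453 absent regions are the matched controls, and 203 members found no such partner. The members were chosen by presence and −log10 q, so those values are given as a description with no test.

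The word weak applies to most members in only 1 of the vehicle libraries. DMSO replicate 1 alone placed 1294 members below percentile 50, DMSO replicate 2 alone placed 145 there, and both did so for 217. The count of members rested on every library but DMSO replicate 2: it was 5047 without ACSS2i replicate 1, 2667 without ACSS2i replicate 2, 390 without DMSO replicate 1 and 1521 without DMSO replicate 2. The labels do not say that the replicates came from separate cultures, so the spread between them may be technical. With 2 libraries per group, no exact permutation test across libraries can give a p-value below 0.333, and regions are not replicates of a treatment. Intervals in brackets are 95% intervals, exact binomial (Clopper-Pearson) for shares and from order statistics for medians, and cover counting error only.

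As background, ATAC-seq uses the Tn5 transposase to insert adapters into DNA that is free of tightly bound nucleosomes, and peaks mark promoters, enhancers and other regulatory elements. Acetylated histone tails are a feature of open promoters and enhancers, and the acetyl groups come from acetyl-CoA. ACSS2 makes acetyl-CoA from acetate in the cytosol and the nucleus. The series also concerns MUL1, a mitochondrial E3 ubiquitin ligase, and the hypoxia factor HIF-2α, which is stable in cells without VHL.

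MUL1 itself is among the members, through the region chr1:20507726-20508352 at its start. Its promoter is printed because it is the only gene of the series' own interest with a member region at an end. The promoters of ADM, PCLO and MYO1E follow as examples among the gene-end members that ranked highest in the ACSS2i lists, and those of SDHD and HS1BP3 as matched controls. Each runs 5′ to 3′ on the strand of its gene, from 250 bases before the annotated start to 50 after it, as RefSeq gives it for GRCh38.p14. Capitals mark matches, on either strand, to any of 11 motifs that are spelled out further on.
MUL1: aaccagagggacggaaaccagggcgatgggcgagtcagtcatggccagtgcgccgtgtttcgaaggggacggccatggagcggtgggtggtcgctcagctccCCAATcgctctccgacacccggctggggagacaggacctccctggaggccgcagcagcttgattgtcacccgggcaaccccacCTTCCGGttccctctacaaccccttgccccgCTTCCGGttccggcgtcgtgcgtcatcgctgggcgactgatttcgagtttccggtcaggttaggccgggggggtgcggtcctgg
ADM: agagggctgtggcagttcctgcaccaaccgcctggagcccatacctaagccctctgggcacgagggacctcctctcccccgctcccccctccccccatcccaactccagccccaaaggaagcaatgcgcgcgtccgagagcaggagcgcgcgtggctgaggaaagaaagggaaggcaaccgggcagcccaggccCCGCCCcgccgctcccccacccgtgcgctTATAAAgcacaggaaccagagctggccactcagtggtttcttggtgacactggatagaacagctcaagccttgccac
PCLO: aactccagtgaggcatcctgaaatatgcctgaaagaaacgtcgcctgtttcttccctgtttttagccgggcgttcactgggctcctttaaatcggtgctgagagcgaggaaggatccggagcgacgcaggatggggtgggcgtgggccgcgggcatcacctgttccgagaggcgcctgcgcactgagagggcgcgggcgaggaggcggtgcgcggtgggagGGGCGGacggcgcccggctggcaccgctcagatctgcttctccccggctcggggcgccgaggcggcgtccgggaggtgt
MYO1E: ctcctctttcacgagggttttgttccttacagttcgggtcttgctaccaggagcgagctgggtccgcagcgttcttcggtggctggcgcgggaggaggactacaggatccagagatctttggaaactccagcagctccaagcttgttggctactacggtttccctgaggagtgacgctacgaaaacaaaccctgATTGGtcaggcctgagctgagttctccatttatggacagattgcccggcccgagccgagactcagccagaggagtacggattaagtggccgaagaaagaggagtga
SDHD: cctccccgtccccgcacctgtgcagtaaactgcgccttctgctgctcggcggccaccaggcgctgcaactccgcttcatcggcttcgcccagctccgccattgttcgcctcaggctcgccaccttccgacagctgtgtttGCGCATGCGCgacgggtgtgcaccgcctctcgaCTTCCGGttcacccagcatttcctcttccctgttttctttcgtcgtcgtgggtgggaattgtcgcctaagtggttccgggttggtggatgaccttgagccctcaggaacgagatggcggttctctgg
HS1BP3: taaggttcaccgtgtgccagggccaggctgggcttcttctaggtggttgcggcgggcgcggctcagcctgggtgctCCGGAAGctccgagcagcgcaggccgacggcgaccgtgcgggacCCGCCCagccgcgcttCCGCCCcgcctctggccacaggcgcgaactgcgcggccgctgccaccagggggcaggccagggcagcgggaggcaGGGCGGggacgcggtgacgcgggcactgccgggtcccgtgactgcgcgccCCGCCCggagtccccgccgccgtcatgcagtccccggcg
The windows lie at chr1:20508102-20508401, minus strand, for MUL1, chr11:10304823-10305122, plus strand, for ADM, chr7:83162835-83163134, minus strand, for PCLO, chr15:59372822-59373121, minus strand, for MYO1E, chr11:112086623-112086922, plus strand, for SDHD and chr2:20651049-20651348, minus strand, for HS1BP3. The MUL1 window holds CCAAT at position -148 and CTTCCGG, the ETS motif read on the other strand, at positions -65 and -34, counted from the annotated start. The ADM window holds TATAAA at position -27 and CCGCCC, the SP and KLF motif read on the other strand, at position -56. The PCLO window holds GGGCGG at position -29, and the MYO1E window holds ATTGG, which is CCAAT on the other strand, at position -56. Among the controls, SDHD holds CTTCCGG at position -77 and overlapping NRF1 matches at positions -110 and -109, and HS1BP3 holds the SP and KLF motif in 4 places. The 6 windows thus show no motif shared by the 4 members alone.

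The share of vehicle regions that were still called after ACSS2i climbed with vehicle strength. Among regions whose lower DMSO percentile was under 10, 1.86% had a peak in both ACSS2i lists. The share was 6.79% between percentiles 20 and 30, 24.8% between 40 and 50, 58.2% between 60 and 70 and 99.2% from 90 upwards. Regions with no weak vehicle peak were retained in 71.8% of 16220 cases, giving 11650 stronger regions of all 4 lists. The rule for members used both measures, so the shares are a description.

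**Figure D1:**
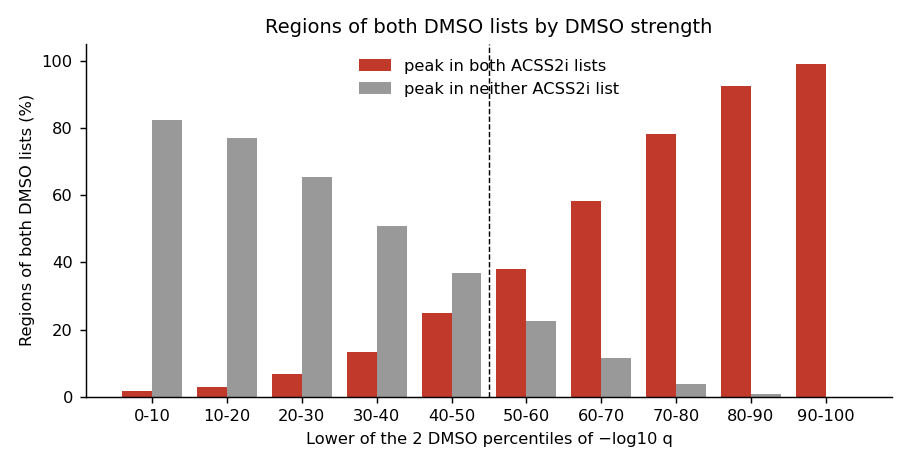
Regions of both DMSO lists by the lower of their 2 DMSO percentiles of −log10 q, in steps of 10. Red bars give the percentage with a peak in both ACSS2i lists, grey bars the percentage with none in either, and the dashed line marks percentile 50; the red bars climb with vehicle strength to 99.2% and the grey bars start at 82.2%.

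Members were low-ranking in the ACSS2i lists as well. Their median percentile was 27.8 and 35.3 in ACSS2i replicates 1 and 2, against 41.4 and 65.7 in DMSO replicates 1 and 2. The pileup, the number of fragments over the summit, was recovered from the deposited fold and p-value. Its median was 16 and 21 fragments in the ACSS2i libraries, against 23 and 50 in the DMSO libraries. The enrichment over local background had a median of 4.04-fold and 3.84-fold in the ACSS2i libraries, against 4.64-fold and 7.45-fold in the DMSO libraries. DMSO replicate 2 stood apart as the high one of the 4 in every one of these measures, so the spread within the DMSO group was larger than the gap between its lower library and the ACSS2i libraries. The pileup was higher in both DMSO libraries than in both ACSS2i libraries for 927 members (56.0%), and the fold for 939 (56.7%). In the stronger regions of all 4 lists, median pileup was 21.5 and 31 fragments in ACSS2i, against 42 and 82 in DMSO. Their median fold was 5.08 and 5.07 in ACSS2i, against 7.18 and 10.1 in DMSO. Lower ACSS2i values were thus not particular to the members, and the same counts are not given here for other regions.

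The lists differ in length and background, which touches every one of these values. They hold 16400 and 22044 peaks for ACSS2i, against 34696 and 50294 for DMSO, and a background over the genome of 2.32 and 3.16 fragments for ACSS2i, against 2.06 and 1.75 for DMSO. The sources used here do not give read totals. The part of list length and background in these values was not tested. Pileups, here and below, are counts that were not scaled to this background. Many members also lay close to the lower end of the ACSS2i lists, which stop at a −log10 q of 2.00. In at least 1 ACSS2i list, 454 members (27.4%) had a −log10 q under 3, and 59 (3.56%) did so in both. The share under 3 is not given here for other regions. The 25th percentile of −log10 q in ACSS2i replicates 1 and 2 was 3.22 and 3.79 over the members. Over the stronger regions of all 4 lists it was 5.20 and 7.46. Defining genes of the cell line were open in both vehicle libraries: 8 of 10 kidney tubule and 786-O identity genes had a region at an end in both DMSO lists, against 1 of 10 immune, 2 of 8 endothelial or stromal and 1 of 8 neuronal or muscle genes.

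**Figure D2:**
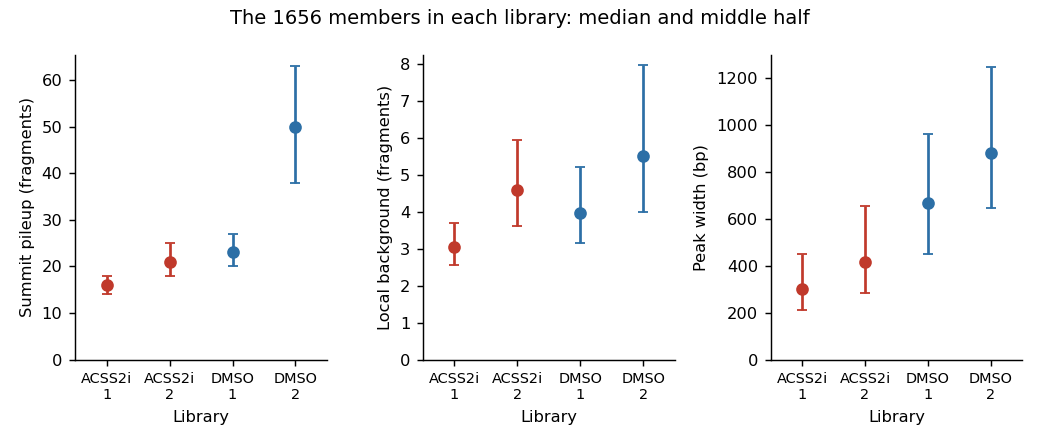
Summit pileup (fragments), local background (fragments) and peak width (bp) of the 1656 members in each library, as medians (points) with the 25th and 75th percentiles (bars), ACSS2i in red and DMSO in blue. Median widths are 300 and 415.5 bp in the ACSS2i libraries and 667.5 and 881.5 bp in the DMSO libraries.

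The ACSS2i peak was usually a narrower interval inside the vehicle peak. Median widths were 300 and 415.5 bp in the ACSS2i libraries, against 667.5 and 881.5 bp in the DMSO libraries. In the stronger regions of all 4 lists they were 501 and 666 bp in ACSS2i, against 928.5 and 1056 bp in DMSO. Narrower ACSS2i peaks were thus not particular to the members. The best ACSS2i peak lay wholly within the best DMSO peak in 55.3% of members for ACSS2i replicate 2 within DMSO replicate 1, 71.1% for ACSS2i replicate 1 within DMSO replicate 1, 86.1% for ACSS2i replicate 2 within DMSO replicate 2 and 91.2% for ACSS2i replicate 1 within DMSO replicate 2. Peaks with several summits made up 6.88% and 19.8% of members in the ACSS2i libraries, against 38.6% and 48.7% in the DMSO libraries. In the stronger regions of all 4 lists this share was also lower in both ACSS2i libraries than in both DMSO libraries. The share of ACSS2i peaks lying within a DMSO peak is not given here for those regions. The vehicle summit fell inside the ACSS2i peak in 73.3% to 86.8% of members over the 4 pairs of libraries. The strongest summits of an ACSS2i and a DMSO library lay a median of 74 to 88 bp apart, close to the 99.5 bp (92 to 109) between the ACSS2i replicates themselves and to the 63 bp (58 to 68) between the DMSO replicates.

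At the same vehicle percentile, members were wider than controls in both DMSO libraries. Median width was 661 bp in the paired members and 402 bp in their controls in DMSO replicate 1, and 867 bp in the members and 592 bp in the controls in DMSO replicate 2. The member was the wider of its pair in 73.2% and 70.4% of the 1453 pairs. Width is tied to the rule, since a wider vehicle interval is more easily overlapped by an ACSS2i peak. How far this tie goes was not tested. More than 1 summit was called in 38.5% of paired members and 13.0% of controls in DMSO replicate 1, and in 49.9% of members and 24.3% of controls in DMSO replicate 2. With all weak regions cut into 4 equal bins of width in DMSO replicate 1, from narrow to wide, members made up 3.06%, 6.23%, 10.9% and 23.2%. The median percentile climbed over the same bins, with 21.8 in the narrowest and 37.7 in the widest, which the pairing takes into account and the bins do not.

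Members also stood on a higher local background, the level of fragments around the peak against which the caller judged it. Its median was 4.01 fragments in paired members and 3.15 in controls in DMSO replicate 1, and 5.48 in members and 3.77 in controls in DMSO replicate 2, higher in the member in 70.1% and 70.6% of pairs. Summit pileup was 23 fragments in members and 20 in controls in DMSO replicate 1, and 47 in members and 40 in controls in DMSO replicate 2. The fold went the other way, at 4.58 in members and 4.99 in controls in DMSO replicate 1, and 7.09 in members and 8.26 in controls in DMSO replicate 2. With controls also of a width within 20%, 1128 pairs remained and the background ratio of members to controls was 1.26 and 1.32 in the DMSO libraries. The ranking decided the direction: with percentiles of pileup in place of −log10 q, the ratio, as a mean of the DMSO libraries, was 0.908, against 1.36 with −log10 q, while the width ratio was 1.48, against 1.55. The q-value itself depends on local background and pileup, so at a fixed q-value these measures are tied to each other.

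**Figure D3:**
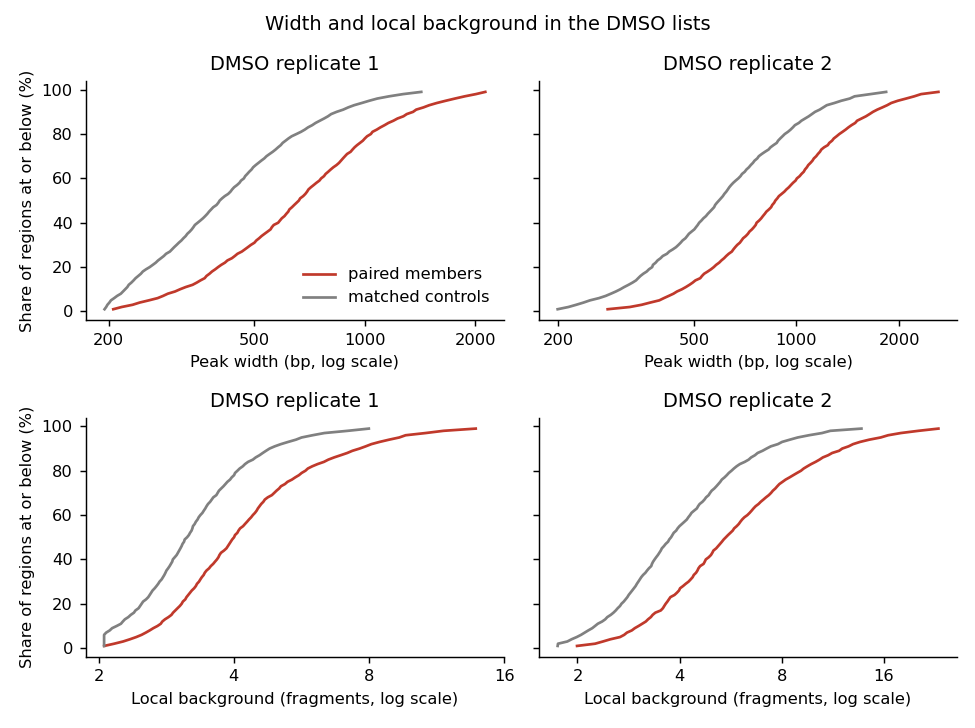
Cumulative share (%) of the 1453 paired members (red) and their 1453 matched controls (grey) by peak width (bp, upper panels) and local background (fragments, lower panels), on log axes, in each DMSO library. The red curves lie to the right of the grey ones in all panels, with median widths of 661 bp against 402 bp in DMSO replicate 1 and 867 bp against 592 bp in DMSO replicate 2.

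Members more often had another vehicle region close by. Within 5 kb of their midpoint, 32.6% (30.2 to 35.1) of paired members and 15.0% (13.2 to 16.9) of controls had another region of both DMSO lists, and among the stronger regions of all 4 lists the share was 16.2%. Within 50 kb the shares came closer, at 84.4% in paired members and 79.6% in controls. This contrast also turned with the ranking, to 11.7% in members and 22.0% in controls under percentiles of pileup. With every list cut to its 16400 strongest peaks the shares were 8.50% in members and 2.16% in controls. When a DMSO replicate was left out, any region of the remaining DMSO list counted as a neighbour, which is a looser measure. On that measure the shares were 58.5% in members and 44.9% in controls without DMSO replicate 1. Without DMSO replicate 2 they were 37.1% in members and 27.4% in controls. The summits of the DMSO replicates lay a median of 65 bp (60 to 71) apart in paired members and 32 bp (30 to 35) apart in controls. As a share of peak width the distances were 9.38% in members and 6.86% in controls, and with controls of like width they were 57 bp in members and 51.5 bp in controls.

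Members lay at gene ends about as often as their controls. A region within 1000 bp of either end of a protein-coding gene was counted, since only the span of each gene was used. Of the 1656 members, 541 (32.7%) lay at such an end, 640 (38.6%) inside a gene and 475 (28.7%) between genes. Among paired regions the gene-end share was 30.4% (28.0 to 32.8) in members and 27.9% (25.6 to 30.3) in controls, with overlapping intervals. It was 40.3% in the stronger regions of all 4 lists. With controls of like width the order turned, to 25.4% in members and 36.2% in controls. It also turned under percentiles of pileup, to 31.7% in members and 32.6% in controls. The order held without DMSO replicate 1, at 17.2% in members and 13.6% in controls. It held without DMSO replicate 2 as well, at 33.6% in members and 17.8% in controls. Ends of lncRNA genes were met by 14.5% (12.7 to 16.4) of paired members and 11.1% (9.58 to 12.9) of controls. By chromosome, members made up between 7.10% of the weak regions on X and 14.6% on 17, and 5 of 31 weak regions on Y.

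The promoters that members and controls overlapped had a higher CpG ratio than promoters at large, with overlapping intervals between members and controls. The ratio of observed to expected CpG, which is low where methylated cytosines have been lost over evolution, had a median of 0.855 (0.831 to 0.874) over 341 promoter windows of paired members and 0.872 (0.846 to 0.896) over 327 of controls, against 0.763 over all 15843 windows of protein-coding genes. The difference between members and controls was not tested and depended on the choice of members: regions weak in both DMSO lists had 0.659 in members and 0.854 in controls, and without DMSO replicate 1 the ratio was 0.763 in members and 0.826 in controls. GC content was 66.0% in members and 67.3% in controls. The motifs, searched on both strands, were TGANTCA for AP-1, TGACGTCA for CRE, GGGCGG for SP and KLF factors, CCAAT for NF-Y, CCGGAAG for ETS, GCGCATGCG for NRF1, AAGATGGCG for YY1, CACGTG for the E-box, ACGTG for the HIF core, GGAATG for TEAD and TATAAA for the TATA box. The HIF core is contained in the E-box. GGGCGG was found in 76.8% of member windows and 75.8% of control windows, against 58.5% of all windows. CCAAT was found in 28.2% (23.4 to 33.2) of member windows, 31.5% (26.5 to 36.8) of control windows, 45.3% of windows of the stronger regions and 36.4% of all. TATAAA was found in 33 member windows, 9.68% (6.76 to 13.3), and in 10 control windows, 3.06% (1.48 to 5.55), against 4.32% of windows of the stronger regions and 9.63% of all. The AP-1 motif was present in 3.52% of member windows, 2.75% of control windows and 5.75% of all. A match is a run of letters and does not show that a factor was bound.

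The gene-end members that ranked highest in both ACSS2i lists were weak in DMSO replicate 1 alone. MYO1E, an actin-based motor of the class I myosins, led them through chr15:59371634-59373089. Its region had a pileup of 27 and 30 fragments in the ACSS2i libraries, against 25 and 95 in the DMSO libraries, and percentiles of 88.5 and 73.9 in ACSS2i, against 45.0 and 92.3 in DMSO. The groups overlapped, because DMSO replicate 1 had the lowest value of the 4 on both measures and DMSO replicate 2 the highest. The pileups compared are counts not scaled to the background of each list. The same order of percentiles held for KPNA1, an importin that carries cargo into the nucleus, at 69.2 and 63.9 in ACSS2i, against 39.8 and 90.7 in DMSO. PCLO, a scaffold of the presynaptic active zone, had percentiles of 75.3 and 67.3 in ACSS2i, against 38.9 and 75.8 in DMSO. Its summits lay within 25 bases of the annotated start in every library.

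The next 5 gene-end members described had their highest pileup in DMSO replicate 2. The region between IL17RE and IL17RC, which encode receptor subunits for the interleukin-17 family, had a pileup of 22 and 31 fragments in the ACSS2i libraries, against 25 and 81 in the DMSO libraries. MT1E, a metallothionein, had 24 and 35 fragments in ACSS2i, against 30 and 87 in DMSO. ASB9, an adaptor of a cullin ubiquitin ligase, had 20 and 27 fragments in ACSS2i, against 20 and 53 in DMSO. In all 3 the DMSO replicate 1 count lay within the range of the ACSS2i counts, and the DMSO replicate 2 count lay above it. These counts are not scaled to the background over the genome, which was 2.32 and 3.16 fragments in ACSS2i, against 2.06 and 1.75 in DMSO. Their order between the groups could differ after scaling. FNDC3B, a fibronectin type III domain protein, had 24 and 32 fragments in ACSS2i, against 31 and 84 in DMSO, and SKIDA1 had 21 and 27 fragments in ACSS2i, against 22 and 70 in DMSO.

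**Figure D4:**
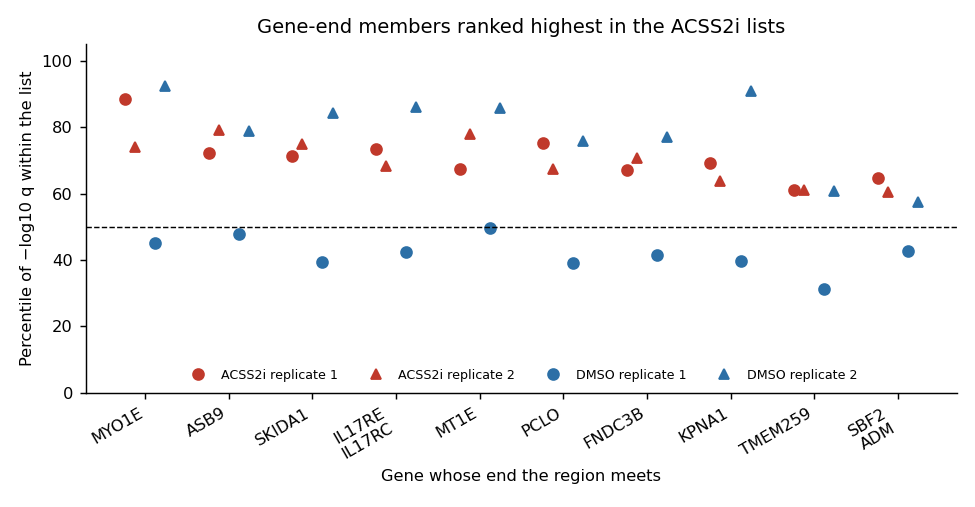
Percentile of −log10 q within each list for the 10 gene-end members with the highest lower ACSS2i percentile, by the gene whose end the region meets. ACSS2i libraries are red and DMSO libraries blue, replicate 1 as circles and replicate 2 as triangles, and the dashed line marks percentile 50; every DMSO replicate 1 value lies below it, from 31.2 at TMEM259 to 49.8 at MT1E.

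A small set of members ranked higher in both ACSS2i lists than in both DMSO lists. There were 35 of them, 2.11% of the members, against 1.59% of all regions of the 4 lists, so the share was near that of the other regions. Of them, 8 lay at gene ends, among them regions that met SBF2 and ADM, MVP and PAGR1, TMEM259, FOSB, PPP1R15A, TNFRSF10B, and RABL6 and AJM1, genes named after their values were seen. None of the 8 had a higher pileup in both ACSS2i libraries than in both DMSO libraries, and 4 had a lower one in both. ADM, the vasodilator peptide adrenomedullin and a known target of HIF, shows the pattern. Its region chr11:10303886-10305531, shared with SBF2, had percentiles of 64.5 and 60.6 in ACSS2i, against 42.6 and 57.3 in DMSO, but a pileup of 26 and 33 fragments in ACSS2i, against 40 and 81 in DMSO. The local background there was 4.90 and 7.47 fragments in ACSS2i, against 11.4 and 21.0 in DMSO. FOSB, a subunit of AP-1, had 22 and 33 fragments in ACSS2i, against 35 and 56 in DMSO. PPP1R15A, which restores translation after stress by directing a phosphatase to eIF2α, had 17 and 24 fragments in ACSS2i, against 28 and 36 in DMSO. At ADM, FOSB and PPP1R15A, a higher rank went with fewer fragments at the summit and with a lower local background. At MVP and PAGR1, TMEM259, TNFRSF10B, and RABL6 and AJM1, the pileups of the groups, as unscaled counts, overlapped.

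MUL1 kept a peak in every library but lay near the bottom of the ACSS2i lists. Its pileup was 12 and 16 fragments in the ACSS2i libraries, against 21 and 43 in the DMSO libraries, and both ACSS2i values were below both DMSO values. Its percentiles were 2.15 and 11.3 in ACSS2i, against 41.2 and 65.8 in DMSO. The peak was 294 and 278 bp wide in ACSS2i, against 405 and 627 bp in DMSO. Its summit lay 179 and 266 bases downstream of the annotated start in ACSS2i, against positions -4 and 120 in DMSO. Of the other genes the series names, ACSS2 had a region of all 4 lists that was not weak, with 17 and 37 fragments in ACSS2i, against 45 and 91 in DMSO. ARNT, the partner subunit of the HIF proteins, likewise had 18 and 35 fragments in ACSS2i, against 58 and 89 in DMSO. At the ends of EPAS1, HIF1A and VHL, the region of both DMSO lists had a peak in ACSS2i replicate 2 alone and is not a member. Another region at VHL had a peak in DMSO replicate 1 alone. Only regions at gene ends are given here for these genes.

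Over all protein-coding genes, 3763 had a weak region at an end and 623 of these (16.6%) had a member there. Each gene list below was chosen with earlier results of these data known, and its share is a description to be read against the 16.6%. Of the AP-1 and immediate early genes, 7 of the 14 with a weak region had a member (23.0 to 77.0%), and 5 had a weak region absent from both ACSS2i lists. The 7 are the AP-1 subunits FOSB, FOSL1 and JUNB, the transcription factor KLF6, the small Maf protein gene MAFG, the matrix protein gene CCN2 and the phosphatase gene DUSP5. KLF6 had percentiles of 38.6 and 66.0 in ACSS2i, against 19.3 and 49.2 in DMSO, and FOSL1 had 80.9 and 31.6 in ACSS2i, against 38.8 and 50.1 in DMSO. The groups overlapped for both genes. KLF2, a matched control of the same list, had percentiles of 34.7 and 85.8 in DMSO and no peak in ACSS2i.

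Of the sterol and fatty acid genes, 4 of 8 had a member (15.7 to 84.3%). Among them are the fatty acid synthase gene FASN, the elongase gene ELOVL6 and the lanosterol synthase gene LSS. FASN, whose product uses malonyl-CoA made from acetyl-CoA, had a pileup of 27 and 26 fragments in ACSS2i, against 28 and 139 in DMSO. ELOVL6 had 14 and 19 fragments in ACSS2i, against 23 and 52 in DMSO. At both genes both ACSS2i pileups lay below both DMSO pileups, and at FASN the lower DMSO value was close to the ACSS2i values. SREBF1 and SCAP, which encode the transcription factor that drives these genes and its sterol-sensing escort, were matched controls, with 33 and 61 fragments in DMSO at SREBF1 and no peak in ACSS2i. The SREBF1 peak was 1702 and 1928 bp wide on a local background of 9.23 and 15.1 fragments in DMSO, so wide regions on a high background also occurred among the controls.

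Of the kidney tubule and 786-O identity genes, 3 of the 4 with a weak region had a member (19.4 to 99.4%). None had a weak region at an end that was absent from both ACSS2i lists. The cadherin gene CDH6 had 20 and 30 fragments in ACSS2i, against 31 and 64 in DMSO. LHX1, a transcription factor of the developing kidney, had 18 and 22 fragments in ACSS2i, against 31 and 51 in DMSO, and its percentile in ACSS2i replicate 2 was 0.807. At both genes both ACSS2i pileups lay below both DMSO pileups.

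Genes of acetyl-CoA supply and histone acetylation gave no member among 11 with a weak region, for which the exact interval reaches 28.5%. CREBBP, a histone acetyltransferase gene, and SIRT6, a deacetylase gene, were matched controls. CREBBP had 20 and 51 fragments in DMSO and SIRT6 had 15 and 34 in DMSO, with no peak in ACSS2i for either. Cell cycle genes gave 0 of 6 (up to 45.9%). Housekeeping lists lay below or near the background, with 3 of 30 for cytosolic ribosomal proteins, 3 of 29 for mitochondrial ribosomal proteins, 2 of 23 for respiratory chain subunits, 1 of 20 for DNA repair and replication, 1 of 25 for RNA polymerase and general factors, 2 of 18 for histone genes, 3 of 14 for proteasome subunits, 3 of 13 for splicing factors and 2 of 11 for translation initiation factors. The large families were near the background too, with 22 of 137 for genes named ZNF (16.1%) and 12 of 65 for solute carriers (18.5%). HIF targets gave 1 of 9, ADM, and glycolysis 1 of 7, the pyruvate kinase gene PKM. Mesenchymal and matrix genes gave 1 of 9, the fibronectin gene FN1, interferon and antigen presentation 1 of 10, the interferon signalling gene IRF9, stress response 1 of 6, PPP1R15A, and autophagy and lysosome 2 of 10, the lysosomal regulator TFEB and the autophagosome protein gene GABARAP. Immune, endothelial, neuronal and olfactory receptor lists had at most 1 gene with a weak region each and no member.

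**Figure D5:**
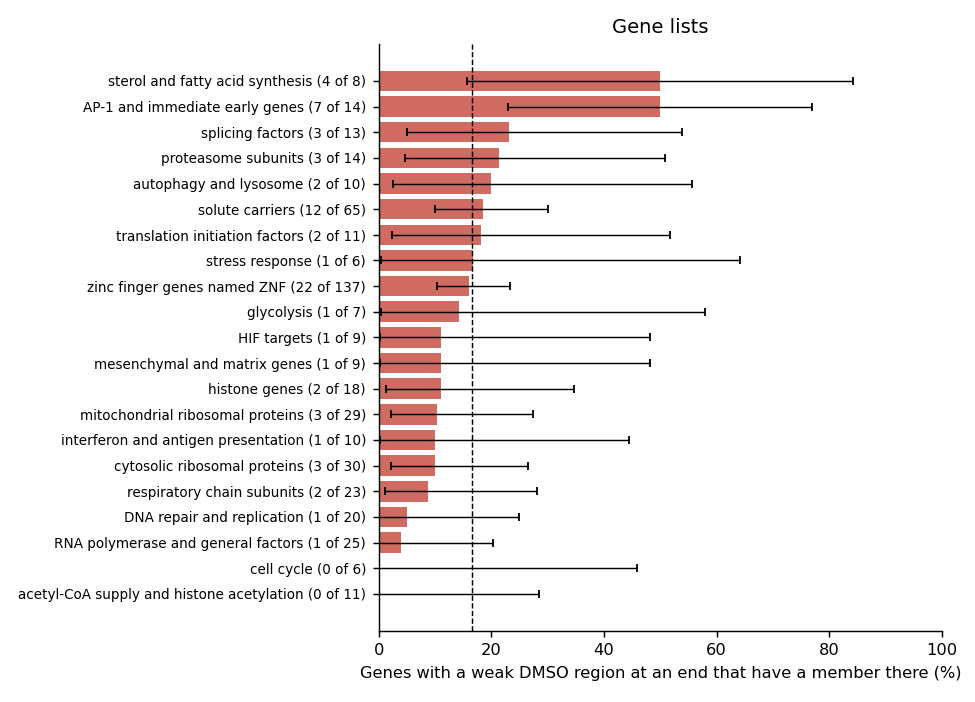
Percentage of genes with a weak DMSO region at an end that have a member there, for the lists with at least 5 such genes, with exact binomial 95% intervals (lines) and counts in brackets. The dashed line marks the 16.6% of all protein-coding genes; the AP-1 and sterol lists stand at 7 of 14 and 4 of 8, and the acetyl-CoA list at 0 of 11.

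Away from gene ends, the members that ranked highest after ACSS2i lay far from genes. The region chr16:34581253-34581658, 191 kb from the nearest protein-coding gene end, had a pileup of 160 and 176 fragments in the ACSS2i libraries, against 38 and 57 in the DMSO libraries, on a local background of 19.9 and 21.1 in ACSS2i, against 17.9 and 7.08 in DMSO. The region chr16:46401382-46401633, 177 kb from the nearest end, had 117 and 97 fragments in ACSS2i, against 52 and 37 in DMSO. The region chr20:28841742-28842764, 1971 kb from the nearest end, had 53 and 48 fragments in ACSS2i, against 26 and 16 in DMSO. In each of the 3, both ACSS2i values were above both DMSO values, unlike the gene-end members named above. These regions flank or lie in the centromeric stretches of chromosomes 16 and 20, which are repetitive, and the sources used here do not say how reads with several matching places were treated. A region on chromosome 8, chr8:85659885-85660661, 74.7 kb from the nearest end, had 48 and 56 fragments in ACSS2i, against 40 and 17 in DMSO. Both ACSS2i counts were again above both DMSO counts, but the counts are not scaled to the background of each list. By fold the groups overlapped there, at 11.7 and 9.30 in ACSS2i, against 12.3 and 6.27 in DMSO. They also overlapped by fold at chr16:46401382-46401633, at 5.48 and 4.71 in ACSS2i, against 3.08 and 5.15 in DMSO. At chr16:34581253-34581658 and chr20:28841742-28842764, both ACSS2i folds were above both DMSO folds. The remaining one of the 5, chrY:56676828-56678945, 31051 kb from the nearest end, had 33 and 60 fragments in ACSS2i, against 62 and 14 in DMSO, so there the groups overlapped. Whether the regions on chromosomes 8 and Y are repetitive was not checked. The treatment of reads with several matching places is unknown for them too. Of the 35 members with a higher rank in both ACSS2i lists, 10 had a higher pileup in both ACSS2i libraries than in both DMSO libraries, and none of these 10 lay at a gene end. A local background at least 4 times that of the genome in all 4 lists was seen in 3 of 1656 members (0.181%). Among the stronger regions of all 4 lists it was seen in 9 of 11650 (0.0773%).

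At the limit itself, members and excluded regions were alike in vehicle strength. The members just inside it met ZDHHC4 and INTS15 or lay nearest SLC47A2 and DNAJC12, with a lower DMSO percentile of 49.97, 49.95 and 49.95. The regions of all 4 lists just outside it met FLT3LG and RPL13A or lay nearest TUBA1C and TRAK1, each at 50.01. ZDHHC4, which encodes a palmitoyltransferase, occurred on both sides of the comparison. Its upper end was the member shared with INTS15, with 15 and 32 fragments in ACSS2i, against 26 and 90 in DMSO, and its lower end was a matched control, with 26 and 46 fragments in DMSO and no peak in ACSS2i. In DMSO replicate 1 the ends had the same pileup and the same local background of 4.30 fragments, with a width of 1041 bp at the member and 324 bp at the control.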

How the data were processed

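Peak lists of 4 ATAC-seq libraries of 786-O cells were used, 2 of ACSS2i and 2 of DMSO, grouped by the treatment in the labels. The submitters' processing notes name Trimmomatic 0.38, Bowtie2, Picard 2.18.26, MACS2 2.1.2 and the build hg38. The sources used here do not give the caller's options, the filter applied to the lists or the read depths. Peaks were called per library. The authors deposited, per summit, a score (10 times −log10 q, not used), a fold ratio over local background, −log10 p-values and q-values, and a summit offset. Per the labels' protocols, cells were treated with DNase I before Tn5.

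From these, pileup and local background were solved from the fold and the Poisson −log10 p (tolerance 0.001), which worked for all but 2 peaks in each ACSS2i list. Regions, percentiles and pairs were made as described, with python 3.11.15, pandas 2.3.3, numpy 2.4.6 and scipy 1.17.1, and matplotlib 3.10.9 for plots, and were checked on simulated data. Gene spans and promoter windows came from RefSeq (GRCh38.p14), with a window for 15843 of 20056 protein-coding genes, and all symbols of the 27 gene lists matched. Named genes are the 10 gene-end members and 5 others with the highest lower ACSS2i percentile, 3 regions on each side of the limit, the controls with the highest lower DMSO percentile, up to 3 members and 2 controls per list, and the study genes, and some results under this rule are not reported here. The members and lists were chosen with earlier results of these data known. No test was made over regions. Alternatives changed the limit, the ranking column, the threshold, the list length, the overlap, the matching, the windows and the libraries used.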

Additional observations from a re-analysis of the deposited data

How the results depend on the processing

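The count of members followed the rule closely. The wider vehicle peaks of members held in direction under every alternative run, but width is tied to the rule. For controls of like width, matching within 20% held the width ratio of 1.05 near equality in advance. The local background and neighbour contrasts turned when regions were ranked by pileup. The order of gene-end shares turned under that ranking and with controls of like width. Leaving out 1 library at a time gave 390 members (without DMSO replicate 1) to 5047 (without ACSS2i replicate 1), with 2667 without ACSS2i replicate 2. Over the same omissions, the gene-end share ran from 17.2% to 33.6% in members and from 13.6% to 28.3% in controls, and the neighbour share from 25.5% to 58.5% in members and from 16.4% to 44.9% in controls. The CpG ratio ran from 0.763 to 0.867 in members and from 0.826 to 0.875 in controls, the summit distance from 58 to 59 bp in members and from 40 to 41 bp in controls, the width ratio of members to controls from 1.25 to 1.86 and the local background ratio from 1.14 to 1.49. Without DMSO replicate 1 or 2, no distance between DMSO summits exists, and a neighbour is any region of the remaining DMSO list. With a limit of percentile 40 there were 792 members, 33.0% of members at gene ends, 72 bp between the DMSO summits of members and 40 bp between those summits in controls. With a limit of 60 there were 2950 members and 29 bp between those summits in controls. Regions weak in both DMSO lists gave 217 members, 20.3% of members at gene ends, 20.3% of controls at gene ends, 51.2% of members with a neighbour within 5 kb, 20.7% of controls with such a neighbour, a CpG ratio of 0.659 in members against 0.854 in controls, 47 bp between those summits in controls and a local background ratio of 1.62. Ranking by fold gave 2887 members, 34.8% of members at gene ends, 19.3% of controls at gene ends, 48.2% of members with a neighbour within 5 kb, 42 bp between those summits in controls, a width ratio of 2.02 and a local background ratio of 2.24. A −log10 q of at least 3 gave 30.7% of controls at gene ends. Lists cut to 16400 peaks each gave 4377 members, 34.6% of members at gene ends, 31.5% of controls at gene ends, 8.50% of members with a neighbour within 5 kb, 2.16% of controls with such a neighbour, a CpG ratio of 0.874 in members against 0.878 in controls, 44 bp between the DMSO summits of members and 23 bp between those summits in controls. All 9233 absent regions as controls gave 18.0% of controls at gene ends, 17.4% of controls with such a neighbour, 52 bp between those summits in controls, a width ratio of 1.84 and a local background ratio of 1.56. Ranking by pileup, an alternative added after seeing the data, gave 32.6% of controls at gene ends, 11.7% of members with a neighbour within 5 kb, 22.0% of controls with such a neighbour, 39 bp between those summits in controls and a local background ratio of 0.908. Controls also of like width, added likewise, gave 25.4% of members at gene ends, 36.2% of controls at gene ends, 35.1% of members with a neighbour within 5 kb, 57 bp between the DMSO summits of members, 51.5 bp between those summits in controls and a width ratio of 1.05. The other settings, an overlap of 100 bp, controls within 2 points and narrower windows, moved each value by less than its interval or, for the count, by less than 1.5 times. The causes of these shifts were not tested. No paired analysis was possible because the result comes from no test: members are set against controls within the DMSO libraries, and no model is fitted between ACSS2i and DMSO. The labels number the libraries 1 and 2 in both groups without saying what a number shares. Compared by number, as a description, the summit pileup of members in ACSS2i was a median of 0.690 times that in DMSO for replicate 1, lower in 1514 of 1656, and 0.431 times for replicate 2, lower in 1632. The stronger regions of all 4 lists had median pileups of 21.5 fragments in ACSS2i and 42 in DMSO for replicate 1. For replicate 2 they were 31 and 82, so a lower ACSS2i pileup was not particular to the members. Read depths being unknown, peaks near the threshold of the ACSS2i lists could not be told from regions just missed.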
